A study of Mus musculus with 6 samples.

Results

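The genes described here are the nuclear-encoded subunits of respiratory complexes II, III, IV and V, with cytochrome c, measured in hearts of mice with and without the long non-coding RNA *Trdn-as*. They were chosen by name from the deposited table, as protein-coding genes called *Sdha* to *Sdhd*, *Cycs* or *Cyc1*, or with names that begin with *Uqcr*, *Atp5*, *Cox4*, *Cox5*, *Cox6*, *Cox7* or *Cox8*. This gave 48 of 21776 genes. There were 4 in complex II, 9 in complex III, 1 for cytochrome c, 17 in complex IV and 17 in complex V. *Trdn-as* is made in cardiomyocytes and runs antisense to *Trdn*, the triadin gene. The *Trdn-as* KO mice were homozygous for a polyA signal inserted into exon 1 of *Trdn-as*, made in mouse embryonic stem cells and backcrossed to C57BL/6, so that the insertion is present in every cell type of the heart. The comparison was between 3 hearts of KO mice and 3 of WT mice, each sequenced as 1 strand-specific library of total RNA. The age and sex of these mice were not given in the sources used here.

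Respiratory complexes sit in the inner mitochondrial membrane. Complex II, succinate dehydrogenase, passes electrons from succinate to ubiquinone, complex III passes them on to cytochrome c, and complex IV hands them to oxygen. Complexes III and IV pump protons, and complex V, the ATP synthase, uses the proton gradient to make ATP. Most of the ATP of a beating heart is made in this way. Several subunits are encoded in mitochondrial DNA. Their reads were removed upstream and 0 mitochondrially encoded genes are in the table, so the account covers nuclear genes only.

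The values are normalised read counts, that is, reads per gene divided by a size factor for each library and rounded. Estimated from the spacing of the rounded numbers, the libraries held 2.59 to 3.62 M counted reads, and WT replicate 1 was the shallowest with 2.59 M, followed by WT replicate 2 with 3.04 M. *Trdn-as*, listed as AC157017.2, had values of 690, 773 and 688 in WT hearts and of 1, 0 and 1 in KO hearts, which lie under the level of 3 reads, so it was at least 240-fold lower in KO. All 10 cardiomyocyte markers examined were detected, with mean values from 652 to 80062.

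The respiratory subunits were among the denser transcripts of the heart. Their level, as the mean normalised read count per kilobase of exon, ranged from 1.23 for *Cox7b2* to 528 for *Atp5a1*, with a median of 164 over the 46 members tested against 25.8 over all 13753 genes tested. Genes were tested where their mean value over the 6 libraries was at least 10. Below that lay *Cox7b2*, a testis isoform of subunit 7B, with values of 2, 0 and 0 in KO and 1, 1 and 0 in WT, all under 3 reads, and *Atp5g2*, with values of 10, 10 and 8 in KO and 6, 10 and 8 in WT. In the 46 tested members each value rested on 6.68 to 1749 estimated reads.

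Promoters of these genes were searched for a pair of short sequence cores, which the choice by name did not use. Of the 48 members, 35 had an entry in the RefSeq promoter table (GRCm38.p6), which covers 250 bases before to 50 bases after a start site. The core of an NRF-1 site, read as GCGC, any base and TGCGC, was found on either strand in 10 of 35 members (28.6%), against 5.19% of 27025 genes with an entry. The core CCGGAAG, bound by ETS factors such as GABP, was found in 12 of 35 members (34.3%), against 9.93% of all genes. The comparison genes were not limited to those expressed in heart or matched for base content. Neither core contains the other, and 4 members (*Atp5h*, *Atp5k*, *Cox6a1* and *Sdhd*) held both, while 18 of 35 held either. The windows that follow are examples from 3 of the members with both cores, all before the RefSeq start site, with the matched core of either strand in capitals and the sequence read 5′ to 3′ on the strand of the gene.
*Sdhd*, NRF-1 core, minus strand, chr9:50603911-50603936: gctggggtGCGCACGCGCggtggcag
*Sdhd*, ETS core, minus strand, chr9:50603881-50603903: tctcctgcCTTCCGGttcacgct
*Cox6a1*, NRF-1 core, minus strand, chr5:115349103-115349128: ggaacgggGCGCATGCGCgctctcgc
*Atp5k*, NRF-1 core, minus strand, chr5:108434432-108434457: tcactgcgGCGCATGCGCctttctgg
A match describes letters in a window and was not tested as a site. By complex the NRF-1 core was in 2 of 3 genes of complex II with an entry, 1 of 5 of complex III, 1 of 13 of complex IV and 6 of 13 of complex V.

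The main comparison asked whether the respiratory subunits differed between KO and WT hearts. Most members had slightly lower means in KO, 5 had higher means, and no member passed the test. Of the 46 tested members 41 were lower in KO, or 89.1%, where 49.4% of all tested genes were lower. The median log2 fold change was -0.11, a ratio of 0.924, against 0.00 over all genes tested. After Benjamini-Hochberg adjustment over all genes 0 members passed 0.05 (limma), against 0.0291% of all genes, and the smallest adjusted p was 0.772. An unadjusted p under 0.05 (limma) was reached by 4 of 46 members, against 5.74% of all genes. Of these 3 were lower and 1 was higher in KO, where 2.80% of all genes were lower and 2.94% higher at that p. With limma-voom and with median-of-ratios scaling the count was 5, and again 0 after adjustment. It was 2 with total scaling, 1 without the mean-variance trend and 1 with a correction for read density. Of these 1, 0 and 0 were lower in KO. The share of all genes at that p ran from 5.65% to 6.00% over these alternatives. Every KO heart lay below every WT heart in 4 members, against 4.44% of all genes, and above every WT heart in 1 member, against 4.64%. The 95% interval of the log2 fold change lay within a change of 1.5-fold for 43 of 46 members. The exceptions were *Cox4i2*, *Cox6b2* and *Atp5l*.

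**Figure D1:**
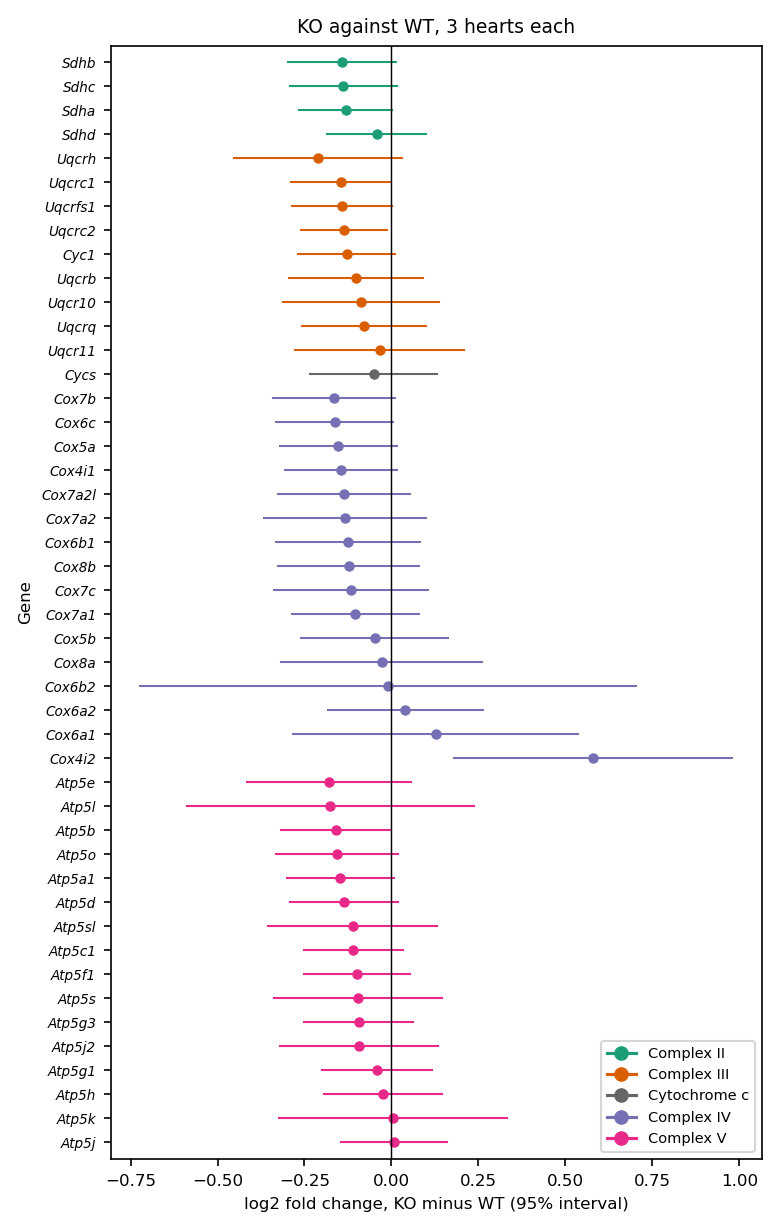
Log2 fold change between 3 KO and 3 WT hearts for the 46 tested members, by complex, with points for the limma estimate and lines for its 95% interval. Most points lie left of 0 with a median of -0.11, and *Cox4i2* at 0.58 lies farthest to the right.

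In the level of the median member the WT hearts differed among themselves more than the KO hearts did. WT replicate 1 held the highest value of 38 of 46 members, where it was highest in 22.1% of all genes tested. Relative to the mean of each gene over the 6 libraries, the median member stood at 0.18 in WT replicate 1 and 0.06 in WT replicate 2 on the log2 scale. It stood at -0.08 in WT replicate 3, and at -0.03, -0.09 and -0.04 in KO replicates 1 to 3. WT replicate 3 thus lay within the range of the KO hearts. Among the 40 members with a mean value of at least 100, values moved together over the 6 libraries with a median pairwise correlation of 0.78, which was 0.76 within a complex and 0.78 between complexes. These points share their libraries and scaling, and the correlation is given as a description.

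**Figure D2:**
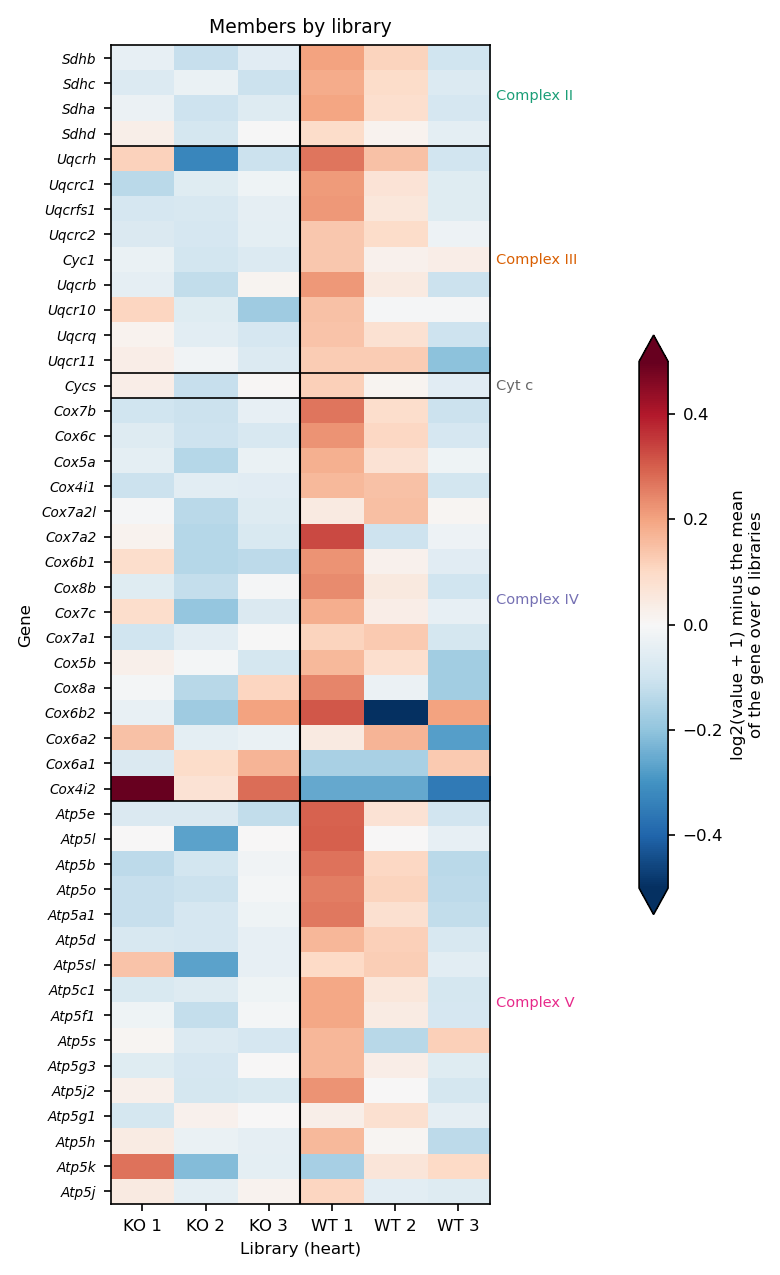
Log2 level of each tested member in each library relative to the mean of that gene over the 6 libraries, grouped by complex, with colours limited at 0.5. WT replicate 1 holds the highest value in 38 of 46 rows, and *Cox6a1* and *Cox4i2* are among the rows that do not follow it.

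Read depth and the level of cardiomyocyte transcripts followed this pattern in part. The libraries with the highest medians were the shallowest, WT replicates 1 and 2, and the other 4 held 3.15 to 3.62 M reads. The 10 cardiomyocyte markers, which included *Myh6*, *Ttn* and *Ryr2*, all had lower means in KO, with a median of -0.16 for their log2 fold changes. Of these 7 had an unadjusted p under 0.05 (limma), against 5.74% of all genes, and 0 passed after adjustment. Values of KO and WT hearts overlapped in 9 of the 10. The median was -0.05 with the density correction, -0.06 without WT replicate 1 and -0.24 without WT replicate 3, and the count of 7 became 0, 1 and 10. In the same order, the share of all genes at that p was 5.65%, 4.36% and 8.60%. The count of markers was also 0 without the trend, KO replicate 1 or WT replicate 2, where the median ran from -0.16 to -0.14, and 1 without KO replicate 2. The share of all genes there was 5.67%, 8.24%, 4.73% and 4.66%. Their summed values were 98133, 100727 and 102978 in KO and 125459, 112125 and 101936 in WT, in the same order as the respiratory genes over the WT hearts but not over the KO hearts, where the median member was lowest in KO replicate 2. KO replicate 1, the deepest library with 3.62 M reads, had the highest median member of the 4 deeper libraries. In bulk tissue, fewer cardiomyocytes and less RNA per cardiomyocyte cannot be told apart. Dense genes in general were lower in KO, since of 359 genes with at least 200 normalised reads per kilobase of exon 335 were lower, with a median of -0.09, against 48.2% lower and a median of 0.01 among sparser genes. Of the 21 members at or above that density 20 were lower with a median of -0.13, and of the 25 sparser members 21 were lower with a median of -0.09. After a loess correction of each library on read density, 37 of 46 members were lower with a median of -0.05. The correction was fitted to these same libraries, with members and markers included. It would therefore also remove a difference between KO and WT that dense genes share. The part of depth and cell content in the difference was not tested.

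**Figure D3:**
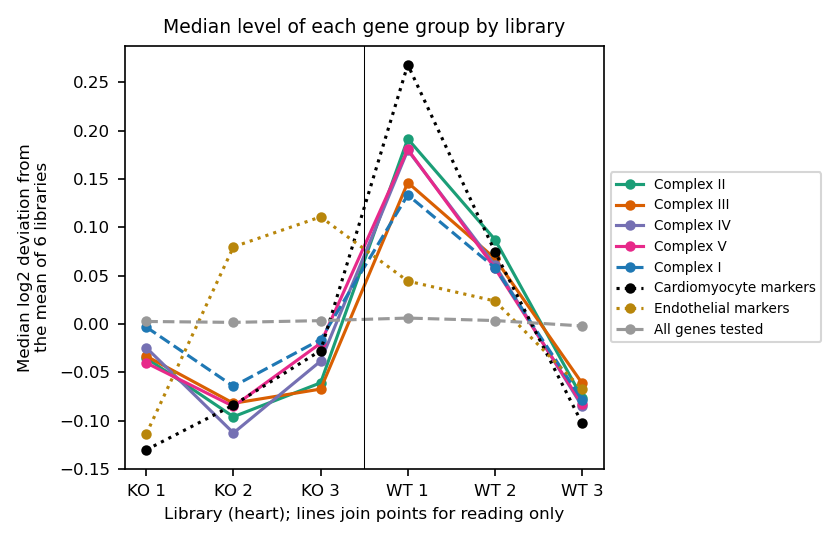
Median log2 deviation from the mean of 6 libraries for the members of each complex, complex I, cardiomyocyte markers, endothelial markers and all genes tested. Respiratory complexes and cardiomyocyte markers peak in WT replicate 1, where the cardiomyocyte markers reach 0.27, while the median of all genes tested is 0.01 there.

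For markers of other cells the ranges of the summed values overlapped between KO and WT hearts in every list. Of the single genes, *Acta2* of the smooth muscle list did not overlap, with 247, 247 and 242 in KO and 267, 261 and 279 in WT. Summed over the lists, endothelial genes ranged from 5310 to 6035 in KO and 5444 to 5974 in WT, fibroblast genes from 3934 to 4523 and 4143 to 4470, and smooth muscle and pericyte genes from 2696 to 2983 and 2751 to 3183. Over the WT hearts the endothelial sums, the smooth muscle and pericyte sums and the fat sums stood in the same order as the respiratory genes, highest in WT replicate 1 and lowest in WT replicate 3. Leukocyte genes ranged from 764 to 1071 in KO and 863 to 964 in WT, fat genes from 363 to 398 and 353 to 401, and atrial genes from 514 to 789 and 552 to 748. Blood genes ranged from 164 to 304 in KO and 151 to 423 in WT, and all 5 were highest in WT replicate 1. No gene of these lists was at 0 in all libraries, and 0 of their tested genes had an unadjusted p under 0.05 (limma).

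Leaving out 1 library changed the size of the difference. Without WT replicate 1 the median log2 fold change of the members was -0.05, with 37 of 46 lower. In that fit 1 member had an unadjusted p under 0.05 (limma), a level that 600 of 13777 genes reached. Without WT replicate 3 it was -0.17, with 42 lower and 19 at an unadjusted p under 0.05, a level that 1182 of 13739 genes reached in that fit, and 0 after adjustment. In the other 4 fits the median ran from -0.13 to -0.09. By complex the medians of II, III, IV and V were -0.07, -0.07, -0.04 and -0.05 without WT replicate 1, and -0.21, -0.18, -0.17 and -0.17 without WT replicate 3. After the density correction they were -0.06, -0.04, -0.04 and -0.07. Single genes moved likewise, as without WT replicate 1 or WT replicate 3 the log2 fold change was -0.06 or -0.27 for *Atp5b*, -0.05 or -0.25 for *Atp5a1*, -0.08 or -0.23 for *Sdhb* and -0.08 or -0.21 for *Uqcrc1*.

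**Figure D4:**
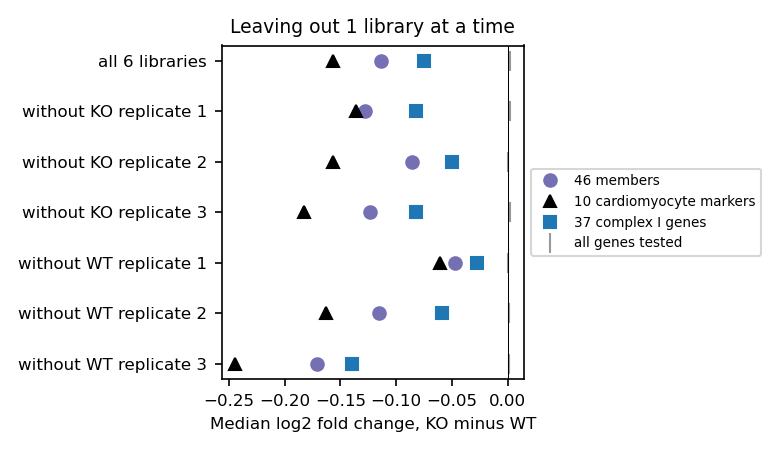
Median log2 fold change between KO and WT with all 6 libraries and without each library in turn, for the 46 members, 10 cardiomyocyte markers, 37 complex I genes and all genes tested. The members move from -0.05 without WT replicate 1 to -0.17 without WT replicate 3, and the markers and complex I genes move the same way between these 2 fits. Leaving out KO replicate 2 takes the members from -0.11 to -0.09 and complex I from -0.07 to -0.05, while the markers stay at -0.16.

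Complex II also works in the citric acid cycle. All 4 of its genes had lower means in KO (median log2 fold change -0.14), and 0 passed. *Sdhb* (ENSMUSG00000009863, chr4:140961203-140979193, plus strand, GRCm38), the iron-sulfur subunit, differed most. It had values of 495, 470 and 490 in KO and 586, 550 and 476 in WT. On the log2 scale KO differed by -0.14 (SE 0.07), and the adjusted p was 0.851 (limma). The groups overlapped, as WT replicate 3 lay below 2 of the KO hearts. *Sdhd*, a membrane anchor subunit, had the highest level of the complex per kilobase of exon, 360 normalised reads. Its values were 451, 416 and 442 in KO and 472, 448 and 428 in WT, with a log2 fold change of -0.04 (SE 0.07). This was -0.01 without WT replicate 1 or KO replicate 2, and -0.08 without WT replicate 3. *Sdha*, the flavoprotein that oxidises succinate, had a log2 fold change of -0.13 (SE 0.06), and *Sdhc*, the other anchor, of -0.14 (SE 0.07). Summed per kilobase of exon, complex II stood at 1034 ± 27.3 in KO and 1114 ± 90.7 in WT (SD, n = 3).

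In complex III the mean was lower in KO for all 9 genes (median log2 fold change -0.13). The core subunits *Uqcrc2* and *Uqcrc1* were among the 3 lower members with an unadjusted p below 0.05. *Uqcrc2* (ENSMUSG00000030884, chr7:120635176-120659524, plus strand) had values of 857, 852 and 872 in KO and 991, 962 and 887 in WT. No KO value reached the WT range. The fitted difference was -0.14 (SE 0.06) on the log2 scale, and limma gave an unadjusted p of 0.0323 and an adjusted p of 0.851. *Uqcrc1* (ENSMUSG00000025651, chr9:108936633-108949623, plus strand) had values of 775, 815 and 838 in KO and 986, 892 and 816 in WT. The groups overlapped, with a fitted difference of -0.15 (SE 0.07) and limma p of 0.0430 unadjusted and 0.851 adjusted. After the density correction *Uqcrc2* stood at -0.05 with an unadjusted p of 0.338 (limma). Without WT replicate 1 the unadjusted p was 0.109 for *Uqcrc2* and 0.252 for *Uqcrc1*. Of the 6 fits without 1 library, it was under 0.05 in 1 for *Uqcrc2* (without WT replicate 3) and in 2 for *Uqcrc1* (without KO replicate 3 or WT replicate 3).

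*Uqcrfs1*, the Rieske iron-sulfur protein that takes electrons from ubiquinol, had the highest level of complex III, 484 normalised reads per kilobase of exon. Its values were 621, 622 and 638 in KO and 765, 685 and 631 in WT, with a log2 fold change of -0.14 (SE 0.07). This became -0.03 after the density correction, -0.07 without WT replicate 1 and -0.21 without WT replicate 3. *Cyc1*, the cytochrome c1 of the complex, had values of 424, 407 and 414 in KO and 477, 441 and 444 in WT, without overlap, and a log2 fold change of -0.13 (SE 0.07). *Uqcrh*, the hinge subunit, had a fitted difference of -0.21 (SE 0.12), the largest of the complex with all libraries, but it was -0.10 when KO replicate 2 was left out, -0.13 when WT replicate 1 was, and -0.32 when KO replicate 1 was. Its values of 188, 138 and 161 in KO overlapped those of 209, 192 and 162 in WT. The accessory subunits *Uqcrb*, *Uqcrq*, *Uqcr10* and *Uqcr11* had log2 fold changes from -0.10 to -0.03. The electron carrier cytochrome c, encoded by *Cycs*, had values of 210, 189 and 206 in KO and 223, 207 and 197 in WT, overlapping between groups, and differed by -0.05 on the log2 scale (SE 0.09), a value that was near 0 without WT replicate 1 or KO replicate 2 and -0.09 without WT replicate 3.

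In complex IV, 13 of 16 tested genes had lower means in KO (median log2 fold change -0.12). The clearest exception was *Cox4i2* (ENSMUSG00000009876, chr2:152754173-152765037, plus strand), a subunit 4 isoform known from lung and from vascular cells, which was higher. It had values of 52, 38 and 44 in KO (44.7 ± 7.02, SD, n = 3) and 30, 30 and 28 in WT (29.3 ± 1.15, SD, n = 3). Every KO heart was above every WT heart. KO exceeded WT by 0.58 on the log2 scale (SE 0.19, 95% interval 0.18 to 0.98). The limma p was 0.00688 unadjusted and 0.772 after adjustment, so *Cox4i2* did not pass over all genes. With any 1 library left out its unadjusted p stayed under 0.05, and was highest without KO replicate 1, at 0.0462 and a log2 difference of 0.47. The usual isoform of subunit 4, *Cox4i1* (ENSMUSG00000031818, chr8:120668222-120674207, plus strand), had values of 356, 370 and 369 in KO and 430, 425 and 360 in WT, a log2 fold change of -0.15 (SE 0.08). The level of *Cox4i2* per kilobase of exon was 0.241 ± 0.0430 times that of *Cox4i1* in KO and 0.143 ± 0.00867 times in WT (SD, n = 3).

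The ratio of *Cox4i2* to *Cox4i1* was 0.287, 0.202 and 0.235 in KO and 0.137, 0.139 and 0.153 in WT, without overlap. On the log2 scale it differed by 0.74 (SE 0.16), with an exact two-sided permutation p of 0.1, the smallest that 3 against 3 allows, and 0.4 after Benjamini-Hochberg adjustment over the 4 isoform ratios examined. Of the 6 smooth muscle and pericyte markers 4 had lower and 2 had higher means in KO, and *Acta2* was lower without overlap. Their log2 fold changes ran from -0.17 to 0.41, with 0 at an unadjusted p under 0.05 (limma). Of the 8 endothelial markers 7 had higher means in KO (median 0.03 on the log2 scale), with 0 at that p. The part of vascular cell content in the *Cox4i2* values was not tested.

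The remaining isoform pairs of complex IV set a heart and muscle form beside a ubiquitous form, and in each the heart form was the denser in every heart. The ratio per kilobase of exon was 5.96 ± 0.994 in KO and 6.45 ± 1.65 in WT for *Cox6a2* over *Cox6a1*. It was 2.45 ± 0.195 and 2.42 ± 0.393 for *Cox7a1* over *Cox7a2*, and 3.74 ± 0.173 and 4.00 ± 0.134 for *Cox8b* over *Cox8a* (SD, n = 3). Their log2 differences between KO and WT were -0.09 (SE 0.27), 0.03 (SE 0.15) and -0.10 (SE 0.05), with exact two-sided permutation p of 0.9, 1 and 0.2 in the same order, or 1, 1 and 0.4 after adjustment over the 4 ratios. With 1 library left out the first ran from -0.32 to 0.06, without WT replicates 3 and 2, and the second from -0.07 to 0.15, without WT replicates 1 and 2, so that neither kept its sign. *Cox8b* had the highest level of complex IV, 518 normalised reads per kilobase of exon, with values of 178, 171 and 185 in KO and 219, 192 and 173 in WT. *Cox8a* had values of 82, 75 and 89 in KO and 98, 81 and 73 in WT.

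*Cox6a2* had values of 220, 192 and 194 in KO and 205, 224 and 164 in WT, differing by 0.04 on the log2 scale (SE 0.11), but by -0.02 without KO replicate 1 and -0.09 without WT replicate 3. *Cox6a1* had values of 32, 36 and 38 in KO and 30, 30 and 37 in WT, differing by 0.13 (SE 0.20). The groups overlapped in both, and these were the other tested complex IV genes with a fitted value above 0. *Cox7a1* had values of 199, 206 and 213 in KO and 231, 234 and 201 in WT. *Cox7a2* had values of 158, 141 and 148 in KO and 196, 145 and 153 in WT. Here too WT replicate 3 fell among the KO hearts.

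**Figure D5:**
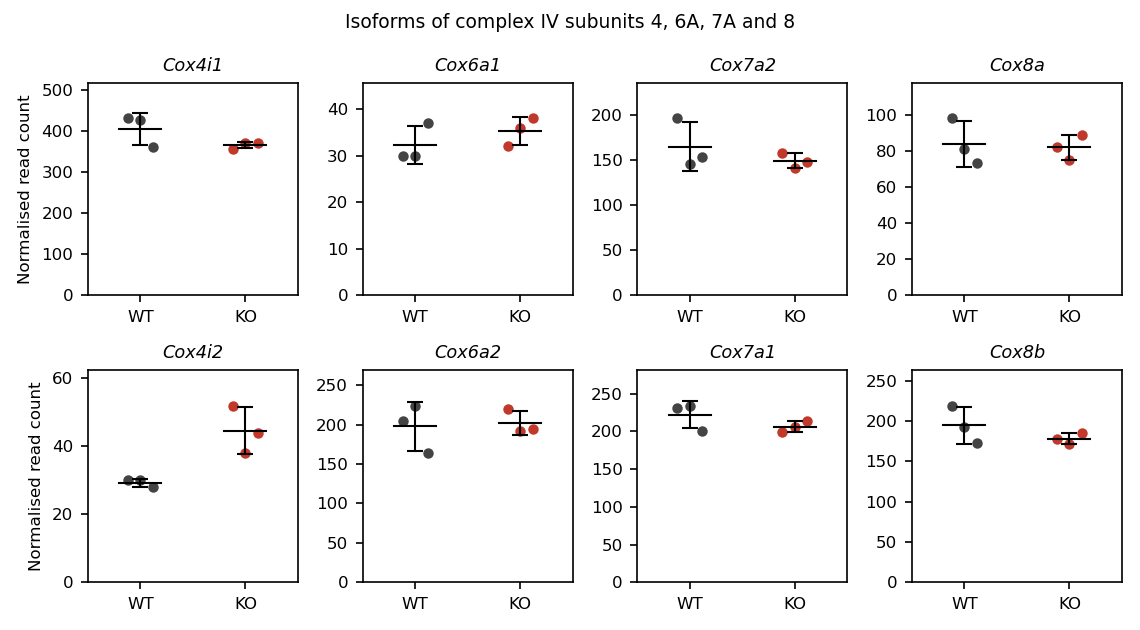
Normalised read counts of the isoforms of complex IV subunits 4, 6A, 7A and 8 in 3 WT and 3 KO hearts, with points for hearts, horizontal lines for the mean and bars for the SD. *Cox4i2* is the pair member in which KO values of 38 to 52 lie above WT values of 28 to 30, and the other 7 genes overlap.

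Among the remaining complex IV genes, *Cox5a* and the supercomplex protein *Cox7a2l* showed no overlap between groups. *Cox5a* had values of 255, 239 and 258 in KO and 299, 278 and 260 in WT, a log2 fold change of -0.15 (SE 0.08). *Cox7a2l* had values of 174, 159 and 167 in KO and 180, 194 and 176 in WT, a log2 fold change of -0.14 (SE 0.09). *Cox7b* and *Cox6c* had the lowest fitted values of the complex, both -0.16 (SE 0.08). *Cox5b*, *Cox6b1* and *Cox7c* lay at -0.05, -0.12 and -0.12. *Cox6b2*, a testis isoform, had values of 10, 9 and 12 in KO and 13, 7 and 12 in WT, too few to bound its change within 1.5-fold.

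In complex V, 14 of 16 tested genes had lower means in KO (median log2 fold change -0.10). The rule by name also takes in *Atp5s* and *Atp5sl*, which are named for the ATP synthase without being core subunits, and leaves out subunits listed under other names. *Atp5b* (ENSMUSG00000025393, chr10:128083273-128090391, plus strand), the catalytic beta subunit, had values of 1312, 1345 and 1417 in KO and 1733, 1541 and 1307 in WT. WT replicate 3 was the lowest of all 6 hearts. The fitted difference was -0.16 (SE 0.08), with limma p of 0.0475 unadjusted and 0.851 adjusted. Without WT replicate 1 the unadjusted p was 0.361, and in the 6 fits without 1 library it was under 0.05 in 2, without KO replicate 3 or WT replicate 3. *Atp5a1*, the alpha subunit and the densest member of all, had values of 1522, 1553 and 1626 in KO and 1981, 1742 and 1512 in WT, with a log2 fold change of -0.15 (SE 0.07). Of the central stalk, *Atp5e* had the largest fitted difference of the complex, -0.18 (SE 0.11), with values of 120, 120 and 116 in KO and 155, 133 and 118 in WT, and it was -0.08 without WT replicate 1 and -0.27 without WT replicate 3. *Atp5c1* lay at -0.11 (SE 0.07) and *Atp5d* at -0.14 (SE 0.07).

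The rotor ring of complex V is built from subunit c, which 3 genes encode. *Atp5g3* had the highest level per kilobase of exon, 162 normalised reads, against 59.1 for *Atp5g1* and 5.17 for *Atp5g2*. These levels depend on the annotated exon lengths, which were 2.181 kb for *Atp5g3*, 4.912 kb for *Atp5g1* and 1.675 kb for *Atp5g2*. *Atp5g3* had values of 338, 333 and 353 in KO and 396, 361 and 338 in WT, with a log2 fold change of -0.09 (SE 0.08). It was -0.03 without WT replicate 1 and -0.15 without WT replicate 3. *Atp5g1* had values of 273, 295 and 291 in KO and 296, 307 and 281 in WT, with a log2 fold change of -0.04 (SE 0.08). This was -0.01 without KO replicate 1 or WT replicate 2, and -0.07 without WT replicate 3. In the peripheral stalk, which holds the catalytic head still, *Atp5o*, *Atp5f1*, *Atp5h* and *Atp5j* had log2 fold changes of -0.16, -0.10, -0.02 and 0.01. In the membrane part *Atp5j2*, *Atp5k* and *Atp5l* lay at -0.09, 0.00 and -0.18, with SE of 0.11, 0.16 and 0.20. *Atp5s* and *Atp5sl* lay at -0.10 and -0.11. Summed per kilobase of exon, complex V stood at 2569 ± 53.8 in KO and 2784 ± 278 in WT (SD, n = 3), so that the spread of the WT hearts exceeded the difference.

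Other genes of the pathway were read from lists of assembly factors and of carriers. Of 40 assembly genes 39 were in the table and 38 were tested, with 25 lower and 13 higher in KO, a median log2 fold change of -0.06, 0 past the adjusted threshold (limma) and 2 at an unadjusted p under 0.05, where 5.74% of all genes were. The 2 with the smallest p were *Uqcc1*, an assembly factor of complex III, with values of 516, 463 and 485 in KO and 602, 521 and 529 in WT, and *Coa5*, an assembly factor of complex IV, with 630, 597 and 566 in KO and 665, 642 and 677 in WT. Their log2 fold changes were -0.17 (SE 0.07) and -0.15 (SE 0.06). *Cox19*, a copper-handling factor of complex IV, had 78, 80 and 78 in KO and 94, 91 and 95 in WT, a log2 fold change of -0.24 (SE 0.12). Every KO heart lay below every WT heart in these 3 and in 3 more of the 38, against 4.44% of all genes, and above in 2, against 4.64%. Of the 6 adenine nucleotide, phosphate and outer membrane carriers and channels, 5 were lower in KO with a median of -0.12 and 0 at an unadjusted p under 0.05. Complex I, which feeds electrons into the same chain, had 29 of 37 genes lower in KO with a median of -0.07. An unadjusted p under 0.05 (limma) was reached by 3 of them, against 5.74% of all genes, and 0 passed after adjustment. The complex I median was -0.03 with 23 lower without WT replicate 1, and -0.14 with 34 lower without WT replicate 3. After the density correction it was -0.02 with 25 lower.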

How the data were processed

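Strand-specific total RNA of 3 *Trdn-as* KO and 3 WT hearts was sequenced as single-end reads. The authors, per the submitters' processing notes, used Trimmomatic 0.39, STAR 2.6.1d, Picard 2.21.1, featureCounts 1.6.5 and DESeq2 1.18.1 on GRCm38. They removed duplicates and multi-mapping, ribosomal and mitochondrial reads, and counted exonic reads by strand. The deposited scores are these counts after division by the size factor the authors took from DESeq2, rounded to whole numbers. Removal of single-end duplicates keeps 1 read per start position, so counts of dense genes grow less than in proportion to depth, and multi-mapping filters lower genes with processed pseudogenes. Between genes, levels are therefore approximate.

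Exon lengths came from GENCODE M21, which gives the deposited coordinates for 38 of the 48 members. They take in every annotated exon of a gene, with shared bases counted once, and can exceed the length of its main transcript. Size factors were estimated from skipped and repeated low numbers. The floor of 3 reads allows for counting error alone, as no molecular identifiers were described. Of the members, *Atp5o* and *Atp5g2* share exonic bases with another gene on their strand, and such reads were not counted. The groups were tested by limma 3.58.1 (R 4.3.3) on log2(value + 1), for genes with a mean of at least 10, with a mean-variance trend (4 residual and 15.4 prior degrees of freedom), two-sided, with Benjamini-Hochberg adjustment over all genes at 0.05. Fold changes are on that scale and understate those of low genes. A test on raw counts was not used, since the table holds normalised values. Replicate libraries of a group differed by more than sampling noise and were each counted as 1 sample. Each library was taken as a separate heart. The p-values rest on the spread between these libraries only in part, since the variance of each gene was drawn towards the trend over all genes. Without the trend the unadjusted p (limma) was 0.123 for *Uqcrc2*, 0.170 for *Uqcrc1* and 0.217 for *Atp5b*, and 0.00271 for *Cox4i2*.

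The members and gene lists were chosen with earlier results of these data known. Full values were given by rule for members at an unadjusted p under 0.05, the largest change and highest level of each complex, the 4 isoform pairs, subunit c and the 3 assembly genes of smallest p. *Cyc1*, *Cox5a*, *Cox7a2l*, *Cox6b2* and *Cox7b2* were added after their values were seen. Alternatives were other scalings, filters, pseudocount 0.1, limma-voom, no trend, a loess correction for read density, a replicate block and leaving out each library. The split at 200 reads per kilobase was chosen after seeing the data.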

Additional observations from a re-analysis of the deposited data

How the results depend on the processing

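In all alternatives run, 0 members passed an adjusted p of 0.05 (limma) and the median log2 fold change of the members stayed below 0. Corrected for read density, the median was -0.05 with 37 members lower, that of complex III moved to -0.041 beyond the spread between replicates, and 1 member had an unadjusted p under 0.05, *Cox4i2*. The count was also 1 without the mean-variance trend and 2 with total scaling, and it ran from 1 to 19 when single libraries were left out, highest without WT replicate 3. Over all genes the share at that p was 5.65% with the density correction, 5.67% without the trend and 6.00% with total scaling. It was 3.69% to 8.60% with single libraries left out. *Cox4i2* was higher in KO in every alternative, with log2 fold changes from 0.47 to 0.69 and adjusted p from 0.483 to 0.999 (limma). Assembly genes at an unadjusted p under 0.05 numbered 1 without the trend, 1 with total scaling, and 0 to 2 when 1 library was left out, with 0 without KO replicate 3 and 0 without WT replicate 1. Over all genes 4 passed, against 2 with at least 10 in every sample, 1 without the trend, and 2 to 32 when 1 library was left out, with 32 without KO replicate 1. Among the members named by rule, signs turned for *Sdhd* (0.049) and *Cox8a* (0.012) under the density correction. With 1 library left out, *Cox8a* ran from -0.122 to 0.088 and turned without KO replicate 2 or WT replicate 1, and *Cox6a2* ran from -0.088 to 0.136 and turned without KO replicate 1 or WT replicate 3. The cause of these shifts was not tested. Nothing pairs hearts by replicate number, and deviations of the same number correlated at 0.05, -0.07 and -0.03 across genes. With a replicate block 3 members had an unadjusted p under 0.05 (limma), against 5.82% of all genes. In that fit 0 passed after adjustment, and the median was again -0.11. At 2.59 to 3.62 M reads *Cox7b2* was not detectable and *Atp5g2* and *Cox6b2* were imprecise.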
